A study of Mus musculus with 4 samples.

Results

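Glucocorticoids are adrenal steroid hormones, and this account follows 10 genes of their pathway in mouse heart: the receptor gene Nr3c1 and 9 genes that the hormone is known to induce in many tissues, Fkbp5, Tsc22d3, Zbtb16, Sgk1, Klf9, Klf15, Mt1, Mt2 and Dusp1. They were chosen by name, and every probe set that the platform annotation gives to 1 of these symbols alone was taken. That gave 29 probe sets out of 45037 that were not controls, for 10 genes out of 18193. A probe set is the group of short oligonucleotides that reports 1 transcript on an Affymetrix 3' array. The value used for each gene is that of its brightest probe set, by the mean of all 4 arrays.

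Hearts of mice with serine 9 of the kinase GSK-3beta replaced by alanine (GSK-3beta S9A, knock-in, aged 3.5 months, n = 2) were set beside wild-type hearts (aged 3.6 months, n = 2). All were of strain C57B6 and were taken at baseline, without a treatment. GSK-3beta is switched off by phosphate on serine 9, so the replacement removes 1 way of inhibiting it. Sex, time of day and handling before collection are not among the labels used here, and neither is whether the 2 samples of a group are different animals, so each p reflects only how far the deposited samples of a group differ, and that difference could be technical. Values are log2 expression values from RMA, a method that summarises probes after quantile normalization, and array medians lay between 5.97 and 6.04. Over all 18193 genes tested with limma, 1 passed at an adjusted p under 0.05 (Cdkn1a). Of the marker lists, the 6 cardiomyocyte markers differed by a median of 0.049 on the log2 scale, and all 6 hepatocyte markers were higher in the knock-in arrays, as described beside the metallothioneins.

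Corticosterone, the main glucocorticoid of mice, binds the receptor in the cytoplasm, where the receptor is held by HSP90 and its partner proteins. The bound receptor enters the nucleus and attaches as a dimer to palindromic DNA elements near its target genes. Genes such as Fkbp5, Tsc22d3, Zbtb16 and Klf9 respond to the hormone in many tissues and are widely read as a record of receptor activity. In heart, the receptor and its target Klf15 are known for their part in metabolism and in the daily rhythm of cardiac gene expression.

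None of the 10 genes passed the test over all genes, where 0.00550% of genes passed. Their adjusted p from limma lay between 0.366 for Sgk1 and 0.970 for Nr3c1. Sgk1, Mt2 and Tsc22d3, 3 of the 10, reached an unadjusted p (limma) under 0.05, where 7.39% of all genes did. All 3 were lower in knock-in hearts, the direction taken by 2.99% of genes at that level. On the arrays themselves, 5 genes lay lower on both knock-in arrays than on both wild-type arrays, which were Sgk1, Mt2, Tsc22d3, Klf9 and Mt1. No gene lay higher on both. Of all genes, 36.5% had arrays apart by group, 17.0% lower and 19.6% higher. The lower direction, taken by all 5, thus held 50% of the 10 genes and 17.0% of all genes. The other 5, Fkbp5, Zbtb16, Klf15, Nr3c1 and Dusp1, had overlapping groups. The 10 genes split into 5 with a higher and 5 with a lower knock-in mean, with a median difference of -0.041 beside 0.00024 for all genes.

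**Figure D1:**
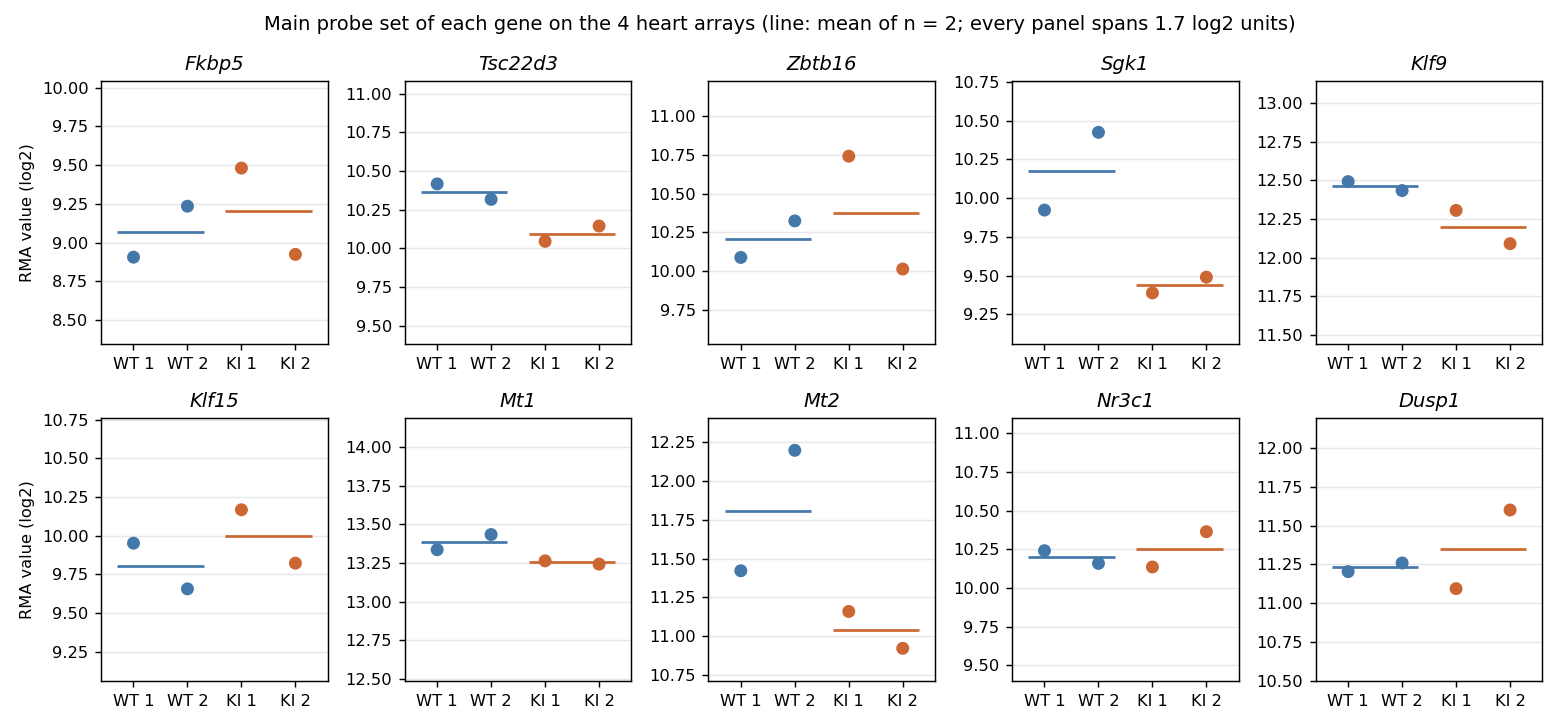
RMA values (log2) of the main probe set of each of the 10 genes on the 2 wild-type (WT, blue) and 2 knock-in (KI, orange) arrays, with lines at group means and the same vertical span of log2 units in every panel. Sgk1, Mt2, Tsc22d3, Klf9 and Mt1 lie lower on both knock-in arrays, while Fkbp5 and Zbtb16 are highest on knock-in 1 and Dusp1 on knock-in 2.

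The transcript of the receptor itself did not differ between the groups beyond the spread of the arrays. Nr3c1, which encodes the glucocorticoid receptor, read 10.24 and 10.16 on the wild-type arrays and 10.14 and 10.36 on the knock-in arrays. The knock-in values enclosed the wild-type values. The difference was 0.050 ± 0.12 on the log2 scale (limma SE, n = 2 per group), with an unadjusted limma p of 0.681. Its 6 probe sets did not share a direction: 4 were higher and 2 lower in knock-in hearts, with differences from -0.24 to 0.38. The second brightest probe set, at 9.66 and 9.91 in wild-type and 9.97 and 10.09 in knock-in hearts, was the only one of the 6 whose groups did not overlap (0.25 ± 0.13, adjusted limma p over all probe sets 0.880). A dimmer one ranged from 6.31 on knock-in 1 to 7.71 on knock-in 2, wider than any difference between the groups.

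The proteins that hold, assist or feed the receptor were also without a call. Of the 21 measured genes for the receptors, their chaperones and cofactors and the enzymes that convert corticosterone, none passed, and none had an unadjusted limma p under 0.05 in either direction. There were 15 higher and 6 lower, with a median of 0.059 (0.00024 over all genes), and 5 had arrays apart by group, 4 of them higher. The smallest p belonged to the co-chaperone Dnajb1, at 8.82 and 8.98 in wild-type and 9.01 and 9.58 in knock-in hearts (0.39 ± 0.19), with an unadjusted limma p of 0.0840. After it came the chaperone Hspa8 (0.23 ± 0.12) and the co-chaperone Bag1 (0.13 ± 0.10). The HSP90 adaptor Stip1 (-0.20), the enzyme H6pd, which supplies NADPH to corticosterone regeneration (-0.13), and the coactivator Ncoa2 (0.18) followed. Hsp90aa1, which encodes the inducible HSP90 that carries the receptor, differed by -0.17. Hsd11b1, whose enzyme regenerates corticosterone inside cells, read 9.59 and 9.53 in wild-type and 9.54 and 9.56 in knock-in hearts. The mineralocorticoid receptor gene Nr3c2, whose product also binds corticosterone, differed by 0.088 ± 0.10.

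Fkbp5 and Zbtb16, 2 of the genes most often used to read receptor activity, varied more within the knock-in group than between the groups. Fkbp5 encodes FKBP51, a partner of HSP90 that lowers the receptor's affinity for hormone and closes a feedback loop. It read 8.91 and 9.24 in wild-type and 9.48 and 8.92 in knock-in hearts. Knock-in 1 was the highest of the 4 arrays, and knock-in 2 lay close to wild-type 1. The group difference was 0.13 ± 0.21 (limma SE, adjusted p = 0.946), against a gap of 0.56 between the knock-in arrays. That gap was larger than in 98.8% of all genes.

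Zbtb16 encodes PLZF, a zinc finger transcriptional repressor. It read 10.09 and 10.32 in wild-type and 10.74 and 10.01 in knock-in hearts. As with Fkbp5, knock-in 1 was the highest array and wild-type 2 the next. The group difference was 0.17 ± 0.24 (limma, adjusted p = 0.937), and the knock-in gap of 0.73 was larger than in 99.6% of genes. All 3 probe sets of Zbtb16 had knock-in 1 as their highest array, including the second (7.72, 7.81, 8.37 and 7.77 on wild-type 1, wild-type 2, knock-in 1 and knock-in 2) and the third (6.63, 6.85, 7.09 and 6.56). The probe sets of Fkbp5 did not share this order. Its second probe set read 7.55 and 7.33 in wild-type and 7.21 and 7.22 in knock-in hearts, so that both knock-in arrays were the lower ones (-0.22 ± 0.12, adjusted limma p over all probe sets 0.885). The third was below the array median on all 4 arrays, at 3.62 and 3.70 in wild-type and 3.78 and 3.84 in knock-in hearts. Without knock-in 1, the difference became -0.15 for Fkbp5 and -0.19 for Zbtb16, and without wild-type 1 it became -0.032 for Fkbp5.

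**Figure D2:**
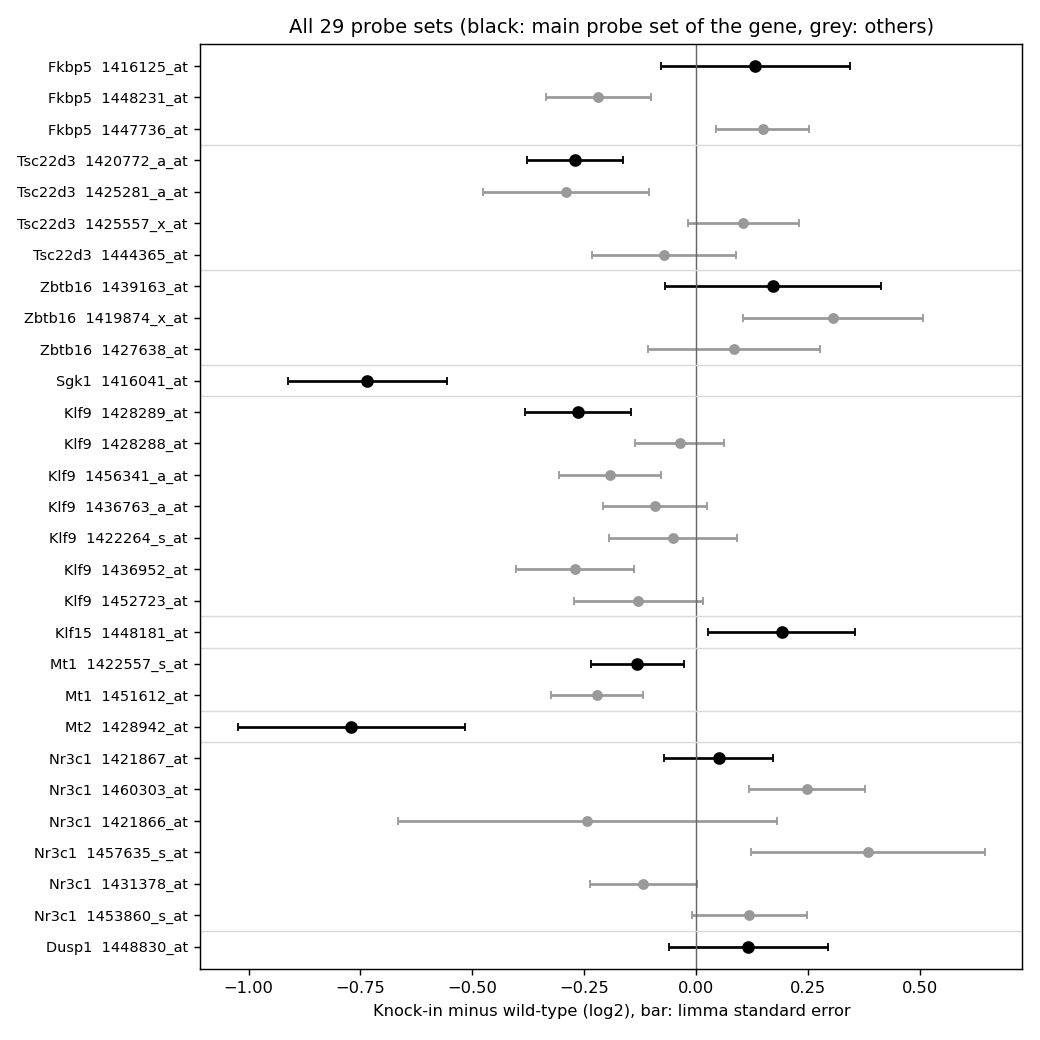
Knock-in minus wild-type differences (log2, horizontal axis) of all 29 probe sets, with limma standard errors as bars from the fit over all probe sets, in black for the main probe set of each gene and grey for the others. The 7 probe sets of Klf9 and both of Mt1 lie below 0, the 3 of Zbtb16 above 0, and those of Fkbp5, Tsc22d3 and Nr3c1 on both sides.

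Tsc22d3 and Klf9, a second pair of broadly induced genes, read lower on both knock-in arrays by small amounts. Tsc22d3 encodes GILZ, a leucine zipper protein that carries part of the anti-inflammatory action of glucocorticoids. It read 10.42 and 10.32 in wild-type and 10.05 and 10.14 in knock-in hearts. The difference of -0.27 ± 0.10, 1.21-fold lower, had an unadjusted limma p of 0.0359 and an adjusted p of 0.616. The next brightest probe set also had the lower mean in knock-in hearts (-0.29) but with overlapping groups, at 9.44 and 9.05 in wild-type and 8.76 and 9.14 in knock-in hearts. The remaining pair of probe sets differed by 0.11 and, for the one below the array median, by -0.072.

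Klf9 encodes a Krüppel-like zinc finger factor that is a direct target of the receptor. It read 12.49 and 12.43 in wild-type and 12.31 and 12.09 in knock-in hearts, and the groups did not overlap. The difference of -0.26 ± 0.11, 1.20-fold lower, had an unadjusted limma p of 0.0558 and an adjusted p of 0.684. Its 7 probe sets were all lower in knock-in hearts, from -0.27 to -0.037, and 4 of them lay apart by group. The 7 report the same gene on the same arrays and are not independent. None of the 7 had an unadjusted limma p under 0.05 in the fit over all probe sets. In that fit none of the 29 probe sets of the 10 genes passed, nor did any of the 45037 (0%). At an unadjusted limma p under 0.05 were 3 of the 29, the main ones of Sgk1, Mt2 and Tsc22d3, compared with 5.84% of all probe sets. Lower on both knock-in arrays were 10 of the 29 and higher on both were 2, where 18.2% and 15.7% of all probe sets were.

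Klf15 did not follow Klf9. It encodes a cardiac and muscle factor that restrains hypertrophy and drives amino acid and lipid use, and it is induced by the receptor and by the clock. It read 9.95 and 9.66 in wild-type and 10.17 and 9.82 in knock-in hearts, with overlapping groups and a difference of 0.19 ± 0.16 (limma, adjusted p = 0.851). The 250 bases before its RefSeq start (GRCm38.p6 chr6:90462326-90462575, + strand) hold 2 copies of the E-box CACGTG, the element bound by the clock activators CLOCK and BMAL1. That element, the same on both strands, occurs in 6.02% of the 32851 windows of this length before RefSeq starts. It is not particular to Klf15, as 1 copy also lies in the window of Dusp1, in that of Fkbp5 and in 1 window of Sgk1. The window is shown because Klf15 sits between the receptor and the clock, and the capitals mark the E-boxes.
Klf15: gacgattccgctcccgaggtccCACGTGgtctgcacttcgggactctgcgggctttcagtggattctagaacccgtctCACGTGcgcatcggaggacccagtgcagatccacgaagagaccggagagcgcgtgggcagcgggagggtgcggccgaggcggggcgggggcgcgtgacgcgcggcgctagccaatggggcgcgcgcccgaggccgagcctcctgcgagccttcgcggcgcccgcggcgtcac

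Genes that Klf15 is known to switch on in muscle and heart were mostly higher in knock-in hearts, without a call. Of 14 measured, 12 were higher and 2 lower, with a median of 0.15 (0.00024 over all genes). Higher on both knock-in arrays were 11 of the 14 (78.6%, where 19.6% of all genes were). At an unadjusted limma p under 0.05, 4 were higher (28.6%, where 4.40% of all genes were) and none lower. The 4 were Alas1, the first enzyme of haem synthesis (0.48 ± 0.13), the proline oxidase Prodh (0.39 ± 0.14), the branched-chain aminotransferase Bcat2 (0.34 ± 0.13) and the glucose transporter Slc2a4 (0.27 ± 0.11). After them came the tyrosine aminotransferase Tat (0.24) and the alanine aminotransferase Gpt (0.22). The limma adjusted p of these 6 lay between 0.430 and 0.778. Clock genes differed on the same arrays. Of 19 measured clock genes, none passed, and their median was 0.48. At an unadjusted limma p under 0.05, 11 of the 19 were higher (57.9%, where 4.40% of all genes were) and 3 lower (15.8%, where 2.99% were). Dbp, a clock output factor, read 9.42 and 8.79 in wild-type and 11.52 and 11.33 in knock-in hearts, and Arntl, which encodes BMAL1, 8.52 and 9.05 against 7.22 and 7.64. The part of the clock in the values of Klf15, its target genes or Klf9 was not tested. All 6 hepatocyte markers were also higher on the knock-in arrays, and liver expresses several of the Klf15 target genes. Alas1 (11.57, 11.31, 11.85 and 11.99 on wild-type 1, wild-type 2, knock-in 1 and knock-in 2) and Gpt (9.42, 9.11, 9.43 and 9.55) had the array order of the albumin gene Alb (7.01, 5.54, 8.58 and 9.66). Bcat2 (9.45, 9.29, 9.57 and 9.85) and Slc2a4 (11.70, 11.52, 11.84 and 11.92) had that order too. Prodh (8.13, 7.89, 8.54 and 8.26) and Tat (6.57, 6.52, 6.86 and 6.70) did not, being higher on knock-in 1 than on knock-in 2. The part of liver RNA in the values of these target genes was not tested.

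Sgk1 had the smallest p of the 10 genes. It encodes a serine/threonine kinase of the AKT family, induced by glucocorticoids, mineralocorticoids and cell stress, that regulates ion channels and cell survival. It read 9.92 and 10.42 in wild-type and 9.39 and 9.49 in knock-in hearts. Both knock-in arrays were below both wild-type arrays, and the knock-in pair lay close together while the wild-type pair did not. The difference was -0.74 ± 0.17, 1.66-fold lower, with an unadjusted limma p of 0.00475, an adjusted p of 0.366 and rank 233 among the 18193 genes. The wild-type gap of 0.50 was larger than in 97.0% of genes. Without wild-type 2 the difference was -0.48, and without wild-type 1 it was -0.99. A single probe set reports this gene.

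Of 15 windows of 250 bases before RefSeq starts of 8 of these genes, 1 holds the complete palindrome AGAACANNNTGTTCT to which receptor dimers bind, and it belongs to Sgk1. This spelling, the same on both strands, occurs in 3 of all 32851 windows (0.00913%). Sgk1 has 6 such windows, for 6 annotated starts, and the one with the palindrome, with other starts on either side of it, lies at GRCm38.p6 chr10:21993640-21993889 on the + strand. The palindrome spans bases 189 to 175 before the start, shown in capitals. It contains the half-site AGAACA on each strand, and 1 further half-site in the window lies outside it. The half-site alone, on either strand, occurs in 16.1% of windows. A match describes letters in these windows and does not show binding, and many receptor elements lie farther away or differ from this spelling.
Sgk1: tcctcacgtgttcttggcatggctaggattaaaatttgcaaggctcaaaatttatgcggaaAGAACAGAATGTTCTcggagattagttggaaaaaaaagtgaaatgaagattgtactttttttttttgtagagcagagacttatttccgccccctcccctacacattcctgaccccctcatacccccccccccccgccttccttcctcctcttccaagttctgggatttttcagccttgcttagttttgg

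Genes with the pattern most like that of Sgk1 were found by Euclidean distance between values centred on each gene's mean over the 4 arrays, among 9095 genes brighter than the median. With 4 arrays many genes lie close by this measure. The 5 nearest were Adamts15 (a matrix protease, distance 0.10), Hsp90b1 (the endoplasmic reticulum HSP90, 0.11), Uck2 (a uridine-cytidine kinase, 0.13), Creld2 (an endoplasmic reticulum protein, 0.14) and Hsph1 (a heat shock protein, 0.15). Hsp90b1 read 11.06 and 11.57 in wild-type and 10.65 and 10.73 in knock-in hearts, the same order of arrays as Sgk1. Among the other 9 genes described here, Mt2 was nearest, at rank 34 with a distance of 0.31. Fkbp5 was at rank 7613 and Zbtb16 at rank 8544.

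**Figure D3:**
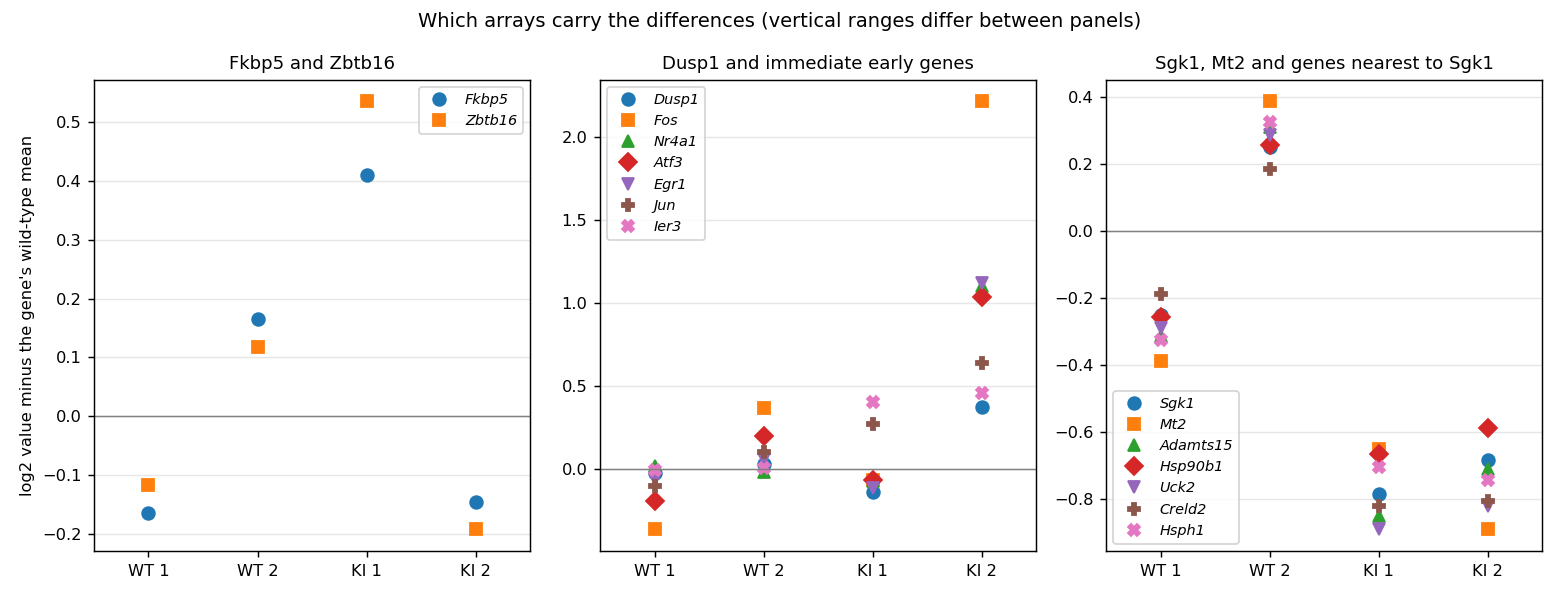
Log2 values minus each gene's wild-type mean on the 2 wild-type (WT) and 2 knock-in (KI) arrays for Fkbp5 and Zbtb16 (left), Dusp1 with 6 immediate early genes (middle) and Sgk1 and Mt2 with the 5 genes nearest to Sgk1 (right). Fkbp5 and Zbtb16 are highest on knock-in 1, Dusp1, Fos, Nr4a1, Atf3 and Egr1 on knock-in 2, and Sgk1 and Mt2 are low on both knock-in arrays and highest on wild-type 2.

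Mt2 showed the largest difference of the 10 genes and Mt1 one of the smaller ones. Both encode metallothioneins, small cysteine-rich proteins that bind zinc and copper, and both are induced by metals, glucocorticoids and oxidative stress. Mt2 read 11.42 and 12.20 in wild-type and 11.16 and 10.92 in knock-in hearts. The groups did not overlap, and wild-type 2 stood above the other 3 arrays. The difference was -0.77 ± 0.25, 1.71-fold lower, with an unadjusted limma p of 0.0197 and an adjusted p of 0.546. The wild-type gap of 0.78 was larger than in 99.7% of genes and as large as the difference itself. Without wild-type 2 the difference was -0.38, and without wild-type 1 it was -1.16.

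Mt1 read 13.34 and 13.43 in wild-type and 13.26 and 13.24 in knock-in hearts. Its groups did not overlap either, and the difference was -0.13 ± 0.10 (limma, adjusted p = 0.830). The second, much dimmer probe set of Mt1 read 7.25 on each wild-type array and 6.98 and 7.08 in knock-in hearts (-0.22 ± 0.10, unadjusted limma p over all probe sets 0.0746). Mt1 and Mt2 are close copies that a probe set may not fully tell apart. Whether their differences differ from one another was not tested.

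The windows before the annotated starts of Mt2 (GRCm38.p6 chr8:94172368-94172617, + strand) and Mt1 (chr8:94178839-94179088, + strand) are shown because these genes are neighbours. Capitals mark metal response elements, read as TGCACNC or TGCGCNC on either strand, which occur in 10.4% and 12.5% of all windows. Mt2 has 3 matches, with starts at 223, 128 and 50 bases before the gene's start, and Mt1 has 1, at 23 bases. Each gene has 1 such window, fixed by its annotated RefSeq start. Elements farther upstream or beyond that start were not searched, so the counts do not rank these genes as metal-responsive. Neither window holds the palindrome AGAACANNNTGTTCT or its half-site.
Mt2: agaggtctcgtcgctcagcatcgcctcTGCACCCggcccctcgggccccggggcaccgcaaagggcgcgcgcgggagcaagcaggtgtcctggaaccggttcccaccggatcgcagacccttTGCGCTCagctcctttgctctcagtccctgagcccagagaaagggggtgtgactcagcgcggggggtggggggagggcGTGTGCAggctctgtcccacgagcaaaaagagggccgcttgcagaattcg
Mt1: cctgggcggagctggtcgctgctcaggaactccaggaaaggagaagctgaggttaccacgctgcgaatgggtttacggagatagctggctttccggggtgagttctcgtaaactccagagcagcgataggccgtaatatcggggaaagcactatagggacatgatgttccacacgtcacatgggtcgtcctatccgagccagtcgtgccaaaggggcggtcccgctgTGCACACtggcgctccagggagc

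Of 15 measured genes of metal handling, metallothioneins included, 7 were higher and 8 lower (median -0.0072). Lower on both knock-in arrays were 5, Mt1 and Mt2 among them (33.3%, where 17.0% of all genes were). Mt2 and the dim zinc exporter gene Slc30a2 (-0.36 ± 0.10) were lower at an unadjusted limma p under 0.05 (13.3%, where 2.99% of all genes were). Mt1 and Mt2 belong to the 10 genes and are counted again in these shares. Among the 13 others, Slc30a2, Slc39a14 and Gclc lay lower on both knock-in arrays, and only Slc30a2 had an unadjusted limma p under 0.05. The zinc importer Slc39a14 differed by -0.23, Slc30a4 by -0.091, and the glutathione synthesis enzyme Gclc by -0.062. Liver makes much metallothionein, and liver transcripts differed between these groups. All 6 hepatocyte markers were higher in knock-in hearts, with a median of 1.49 and a summed linear level of 485 to 748 in wild-type and 1698 to 2842 in knock-in hearts. Alb, which encodes serum albumin, read 7.01 and 5.54 against 8.58 and 9.66. Mt1 and Mt2 thus lay lower on the arrays where hepatocyte markers lay higher, and the part of liver RNA in their values was not tested. In whole hearts, fewer cells of a type and less RNA per cell cannot be told apart.

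Dusp1 was highest on 1 knock-in array and lowest on the other. It encodes MKP-1, a phosphatase that removes activating phosphates from p38, JNK and ERK kinases, and it responds both to glucocorticoids and, as an immediate early gene, to acute stimulation. It read 11.20 and 11.26 in wild-type and 11.09 and 11.60 in knock-in hearts. Knock-in 1 was the lowest array and knock-in 2 the highest. The difference was 0.12 ± 0.17 (limma, adjusted p = 0.944), against a knock-in gap of 0.51 that was larger than in 98.2% of genes. Without knock-in 2 the difference was -0.14.

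Several immediate early genes were highest on the same array. The transcription factor gene Fos read 6.66 and 7.39 in wild-type, 6.96 on knock-in 1 and 9.24 on knock-in 2. Nr4a1 (9.72, 9.69, 9.63 and 10.81 in the same order), Egr1 (8.70, 8.83, 8.65 and 9.89) and Atf3 (8.10, against 6.87 to 7.26 on the other arrays), which also encode transcription factors, were likewise highest on knock-in 2. Of 20 measured immediate early genes, 12 were higher and 8 lower in knock-in hearts, and none passed. Their median was 0.040, and without knock-in 2 it was -0.071. Only Ier3 (0.43 ± 0.10) and Jun (0.45 ± 0.15) had an unadjusted limma p under 0.05, and both lay higher on both knock-in arrays. The part of knock-in 2 in the value of Dusp1 was seen in the difference without it, and what sets that array apart was not tested.

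The 250 bases before the start of Dusp1 (GRCm38.p6 chr17:26508473-26508722, - strand) hold the complete cyclic AMP response element TGACGTCA, the same on both strands, in capitals here because it is the classic element of stimulus-driven genes. It occurs in 1.55% of all windows. The window of Dusp1 holds neither the palindrome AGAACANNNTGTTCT nor its half-site.
Dusp1: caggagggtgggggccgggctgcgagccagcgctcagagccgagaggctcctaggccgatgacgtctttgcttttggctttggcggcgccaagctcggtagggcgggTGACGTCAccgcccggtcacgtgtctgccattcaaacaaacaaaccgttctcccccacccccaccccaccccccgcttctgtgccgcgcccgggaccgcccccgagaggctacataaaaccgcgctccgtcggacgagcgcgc

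Half-sites without the palindrome were found before 1 of the 3 starts of Tsc22d3 and 2 further starts of Sgk1. The windows of Fkbp5, Klf9, Klf15, Mt1, Mt2 and Dusp1 held none. No window of Zbtb16 or Nr3c1 was used here.

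The spread between replicate arrays was uneven across the 10 genes. A gap between the arrays of a group among the largest 5% of all genes was found for 5 of the 10, compared with 9.49% of all genes in either group. They were Sgk1 and Mt2 in wild-type hearts and Fkbp5, Zbtb16 and Dusp1 in knock-in hearts. The gap at the 95th percentile was 0.44 for the wild-type pair and 0.38 for the knock-in pair. Tsc22d3, by contrast, had gaps of 0.10 in each group, which 39.7% and 46.3% of genes fell below, and the gaps of Mt1 exceeded those of 39.1% of genes for the wild-type pair and 11.2% for the knock-in pair.

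Other genes known to be induced by glucocorticoids were more often lower than higher in knock-in hearts. Of 41 measured, 28 were lower and 13 higher, with a median of -0.13 (0.00024 over all genes). Only Cdkn1a, which encodes the cell cycle inhibitor p21 and was already known as the single call of these data, passed the test over all genes (10.63 and 10.76 on the wild-type arrays, 9.06 and 8.98 on the knock-in arrays, 3.19-fold lower, limma, adjusted p = 0.0434). Cdkn1a no longer passed when any 1 of the 4 arrays was left out, with the replicate block or with the first listed probe set of each gene. At an unadjusted limma p under 0.05, 13 were lower (31.7%, where 2.99% of all genes were) and 1 higher. This list was drawn up with earlier results of these data known. Without Cdkn1a, Ddit4, Pdk4, Angptl4 and Nfkbia, which had been reported lower, 23 of the remaining 36 were lower and 13 higher (median -0.072), 8 of them lower at that level (22.2%) and 1 higher.

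The genes of smallest p after Cdkn1a were the mTORC1 inhibitor Ddit4 (2.54-fold lower), the pyruvate dehydrogenase kinase Pdk4 (2.99-fold), the lipoprotein lipase inhibitor Angptl4 (2.11-fold), the transcription factor Cebpd (8.56 and 8.80 on the wild-type arrays, 8.09 and 8.01 on the knock-in arrays, 1.55-fold) and the NF-kB inhibitor Nfkbia (1.45-fold). Their adjusted limma p lay between 0.0724 and 0.289. The 1 gene on the other side, Ptgds, encodes a prostaglandin D synthase that glucocorticoids induce in cardiomyocytes. It read 13.41 and 13.63 in wild-type and 13.93 and 13.91 in knock-in hearts, 1.32-fold higher (limma, adjusted p = 0.472). It and the further genes lower at an unadjusted limma p under 0.05 (Gadd45g, Errfi1, Bcl2l1, Rasd1, Lcn2, Slc10a6 and Plekhf1) are named because the count singled them out after their values were seen. Per1, a clock gene that the receptor induces directly, differed by 0.15 with overlapping groups. Several of the genes in this list also answer to fasting, insulin, p53 or cell stress. The part of those signals was not tested.

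**Figure D4:**
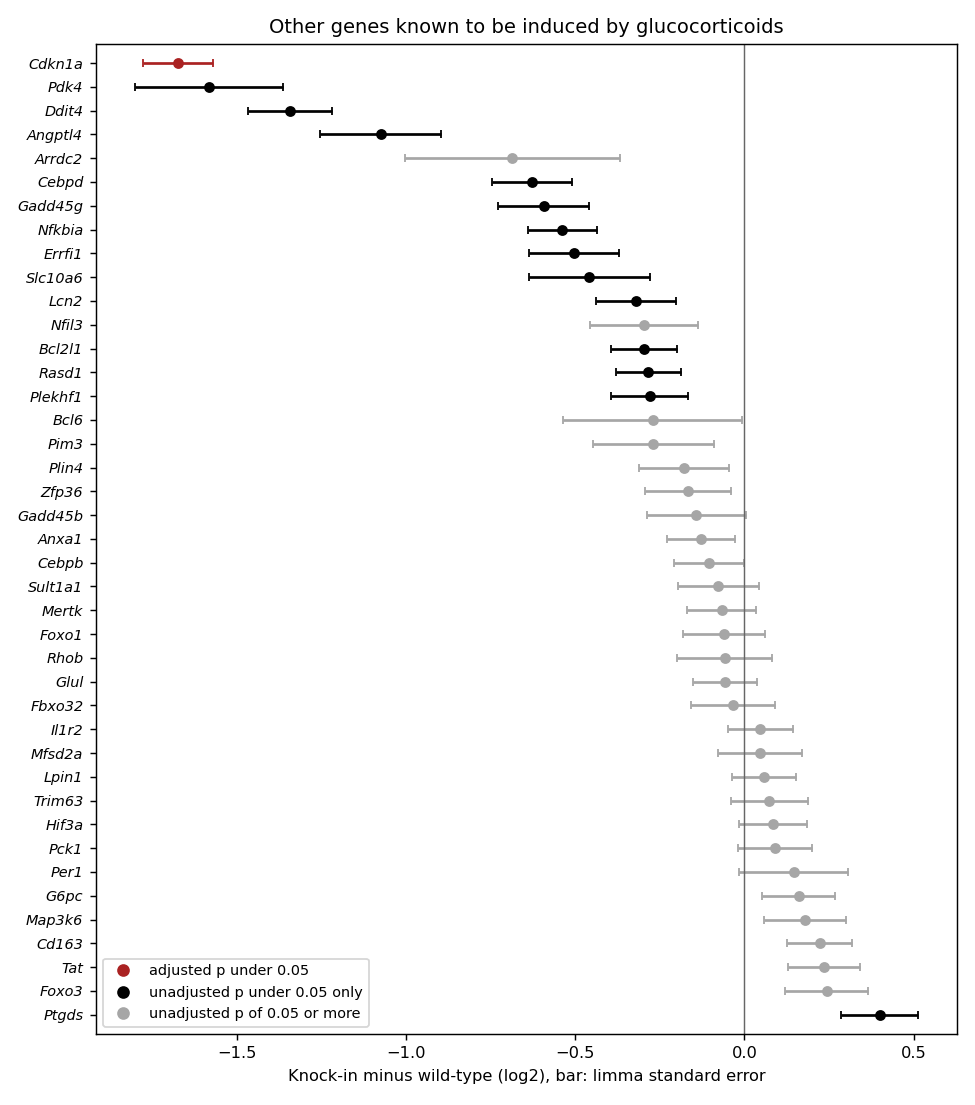
Knock-in minus wild-type differences (log2, horizontal axis) of the 41 other glucocorticoid-induced genes, with limma standard errors as bars. Cdkn1a (red) passed over all genes, 12 further genes on the lower side and Ptgds on the higher side had an unadjusted p under 0.05 (black), and the others (grey) did not.

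**Figure D5:**
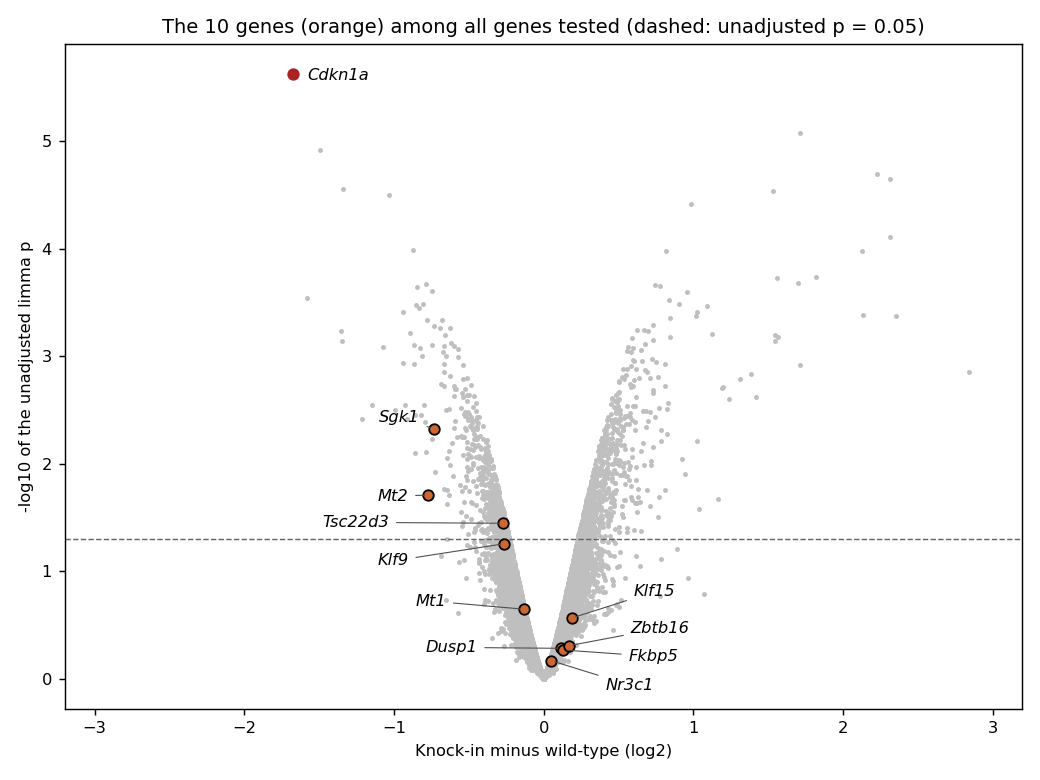
Knock-in minus wild-type difference (log2, horizontal axis) against -log10 of the unadjusted limma p (vertical axis) for 18193 genes, with the 10 genes in orange and Cdkn1a in red. Sgk1, Mt2 and Tsc22d3 lie above the dashed line at an unadjusted p of 0.05, all on the lower side, and the other 7 lie beneath it.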

How the data were processed

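Heart RNA was measured on 4 Affymetrix 3' arrays, 2 per group, with groups and replicate numbers from the sample titles. The deposited log2 values were made by the authors with RMA in Affymetrix Expression Console, per the submitters' processing notes, with the wild-type arrays normalized here with the knock-in arrays alone, per the labels. RMA gives no detection call, and the number of arrays limits the precision.

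Probe sets with 1 gene symbol (34945 of 45037 other than controls) were named from the platform annotation, updated by Entrez identifier through RefSeq (34741 matched). Knock-in minus wild-type differences were fitted in R 4.3.3 with limma 3.58.1 (lmFit, then eBayes), two-sided, with Benjamini-Hochberg adjustment over 18193 genes or over 45037 probe sets at 0.05. The fit was tested on simulated data. With 2 against 2 arrays an exact permutation test cannot go below p = 0.333. The 10 genes and the 19 lists were chosen with earlier results of these data known, so no p was adjusted over a list alone and no list test was run. Genes named from a list were up to 6 of smallest p and any called, besides Alb, Dbp, Arntl and the 5 genes nearest to Sgk1. Hsp90aa1, Hsd11b1, Nr3c2, Egr1, Per1 and the lower genes counted beyond the first 6 are named outside this rule, after their values were seen.

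Promoter windows are RefSeq sequences of GRCm38.p6 for 8 of the 10 genes, searched on both strands. Of the listed genes, 17 had no probe set with 1 symbol and were not analysed here. The alternatives were the replicate block, another prior, array scaling, bright genes alone, other choices of probe set and leaving out each array.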

Additional observations from a re-analysis of the deposited data

How the results depend on the processing

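None of the 10 genes passed over all genes under any of the 12 alternatives, and 114 of their 120 alternative differences kept direction. The number of the 10 at an unadjusted limma p under 0.05 lay between 2 and 4. Sgk1, Mt2, Mt1, Klf9 and Tsc22d3 were lower and Klf15 higher throughout, with Sgk1 between -0.99 and -0.48 and Mt2 between -1.16 and -0.38. The others came near 0 in some settings. Klf9 lay between -0.37 and -0.052, Tsc22d3 between -0.32 and -0.072, Mt1 between -0.22 and -0.083, and Klf15 between 0.018 and 0.36. Leaving out 1 array, the difference ran from -0.15 to 0.41 for Fkbp5, -0.19 to 0.54 for Zbtb16, -0.064 to 0.16 for Nr3c1 and -0.14 to 0.37 for Dusp1. It was -0.24 for Nr3c1 with the first listed probe set, whose values differ from those of the brightest one. The number of the 10 with arrays apart by group was 6 to 10 without 1 array, where a lone array has fewer values to clear. The number of genes passing was 0 with the replicate block, 22 with an intensity trend and robust prior, 11 with each array centred, 11 after quantile normalization, 7 among genes above the median, 11 with averaged probe sets, 0 with the first listed probe set and 0 to 0 without 1 array. The number of probe sets passing was 19 with the trend and robust prior and 8 after quantile normalization, where the setting reported above gives 0. The cause of these changes was not tested. The labels do not say whether the replicate numbers pair the arrays. Deviations of same-numbered arrays from their group means correlated at -0.031 over all genes and at -0.15 over genes brighter than the median. With 2 arrays per group such a correlation cannot decide whether arrays shared a litter, day or batch. With the replicate block 2 of the 10 had an unadjusted limma p under 0.05. Centring moved the median of all genes from 0.00024 to 0.039. The other glucocorticoid-induced genes were lower in 25 to 29 of 41 under every alternative that kept all 41, with 8 to 14 lower at an unadjusted limma p under 0.05. Their median was -0.17 without knock-in 1 and -0.076 without knock-in 2. In this list 3 genes passed, all lower, with the trend and robust prior. With centring, quantile normalization, bright genes alone or averaged probe sets, 2 did. Of the clock genes, 4 passed, all higher, with the trend and robust prior and with averaged probe sets. With centring, quantile normalization or bright genes alone, 2 clock genes did. The Klf15 target genes kept a median above 0, with 1 of 14 at an unadjusted p under 0.05 without knock-in 2.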

Other observations

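Among the relatives of the 10 genes, Klf10 had the smallest p in the Krüppel-like factor family. It encodes a factor induced by TGF-beta and by the clock, and its mean was 7.29 ± 0.42 in wild-type against 8.01 ± 0.095 in knock-in hearts (SD, n = 2), a difference of 0.72 ± 0.19 (limma SE, 1.64-fold higher, adjusted p = 0.439). It was the only 1 of 16 measured family members at an unadjusted limma p under 0.05 (6.25%), a share near the 7.39% of all genes. Its wild-type gap of 0.59 was larger than in 98.5% of genes. After Klf10 and Klf9 came the endothelial factor Klf2 (-0.26) and Klf5 (-0.15). None of 10 MAP kinase phosphatases had an unadjusted limma p under 0.05, and the smallest p belonged to Dusp7 (0.22) and Dusp10 (0.20). Of 23 measured genes of the SGK, TSC22, FKBP and PLZF families, Sgk1 and Tsc22d3 were at that level, both lower (8.7%, where 2.99% of all genes were). Both belong to the 10 genes and are counted here again. None of the 19 measured relatives outside the 10 was at that level. The next by p were the peptidyl-prolyl isomerases Fkbp9 (0.21), Fkbp11 (0.20) and Fkbp3 (0.25).

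Of the cell type markers other than those of hepatocytes, 3 genes had an unadjusted limma p under 0.05, a share of the measured markers near the 7.39% of all genes. They were 1 of 6 smooth muscle and pericyte, 1 of 6 skeletal muscle and 1 of 4 adipocyte markers. The remaining lists, of 3 to 6 measured genes each, had none. Acta2, the smooth muscle actin, was 1.23-fold lower, whereas the skeletal actin gene Acta1, which heart also uses, was 2.03-fold higher and the fat-cell hormone gene Adipoq 2.18-fold higher. The median of the adipocyte list was only 0.019 and that of the skeletal muscle list 0.038. Adipocyte markers were dim, with list means of 5.23 to 5.55 per array, below the array medians. The adipocyte genes Plin1 and Cfd were not measured. List medians lay between -0.15 for lymphocyte and 0.097 for macrophage markers, with endothelial markers at -0.12 and fibroblast markers at 0.094. The adjusted limma p of these 3 genes lay between 0.237 and 0.587.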
